A study of Ovis aries with 2 samples.

Results

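Dermal fibroblasts that carried lumican (LUM) RNA were picked out of a single-cell RNA-seq data set of sheep skin. A cell was kept when it held at least 5 LUM and at least 20 COL1A1 molecules per 10000 of its own unique molecular identifiers (UMIs, the tags that mark single captured RNA molecules), a scale written CP10K here, and when UMIs of fewer than 3 of 6 endothelial genes were found in it. This gave 101 cells of 14037, or 0.720% (95% exact Clopper-Pearson interval 0.586 to 0.874). The skin came from Hu sheep lambs of 3 days, sorted by wool type into straight wool and curly wool, the latter labelled waved in part of the records. Skins of 3 lambs were pooled for each wool type, and each pool gave 1 library, so no value carries a spread between lambs and no test between wool types was made. Before loading, cells freed from hair follicles with TrypLE were mixed with cells freed from whole skin with collagenase IV followed by TrypLE, so a share of cells also reflects the dissociation and the mixing. All intervals cover counting error only.

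Dermal fibroblasts build the connective tissue of the skin. They secrete the chains of type I and type III collagen, and small leucine-rich proteoglycans such as lumican and decorin bind the collagen fibrils and set their width and spacing. Around the follicle base another mesenchymal cell, the dermal papilla cell, signals to the epithelium that makes the fibre, and it was used below as the cell type nearest to the fibroblasts.

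The fibroblasts numbered 56 of 6452 cells in the straight library, or 0.868% (0.656 to 1.13), and 45 of 7585 in the curly library, or 0.593% (0.433 to 0.793). The 2 intervals overlapped. Among cells that met the minimum of detected genes named for quality control of this data set, to which the deposited table does not keep, 9 of 3964 straight and 3 of 4321 curly cells were fibroblasts, or 0.227% and 0.0694%. The shares therefore rest largely on cells with fewer genes, since the fibroblasts had medians of 809.5 and 701 detected genes. The LUM threshold was passed by 384 cells and the COL1A1 threshold by 260, with 101 cells in both counts, so most cells past 1 threshold did not pass the other. No cell was removed for endothelial genes. Of the 283 cells with LUM but less COL1A1 than required, 83 held no COL1A1 UMI, and of the 159 with COL1A1 but less LUM than required, 144 held no LUM UMI. The lowest member values were 5.06 CP10K for LUM and 20 for COL1A1, and the highest values just outside were 4.93 and 19.8. For 14 fibroblasts the LUM value rested on 1 UMI, for 11 on 2, and for 76 on 3 or more. The cells were chosen by their measured LUM and COL1A1 levels, so those levels describe the choice.

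**Figure D1:**
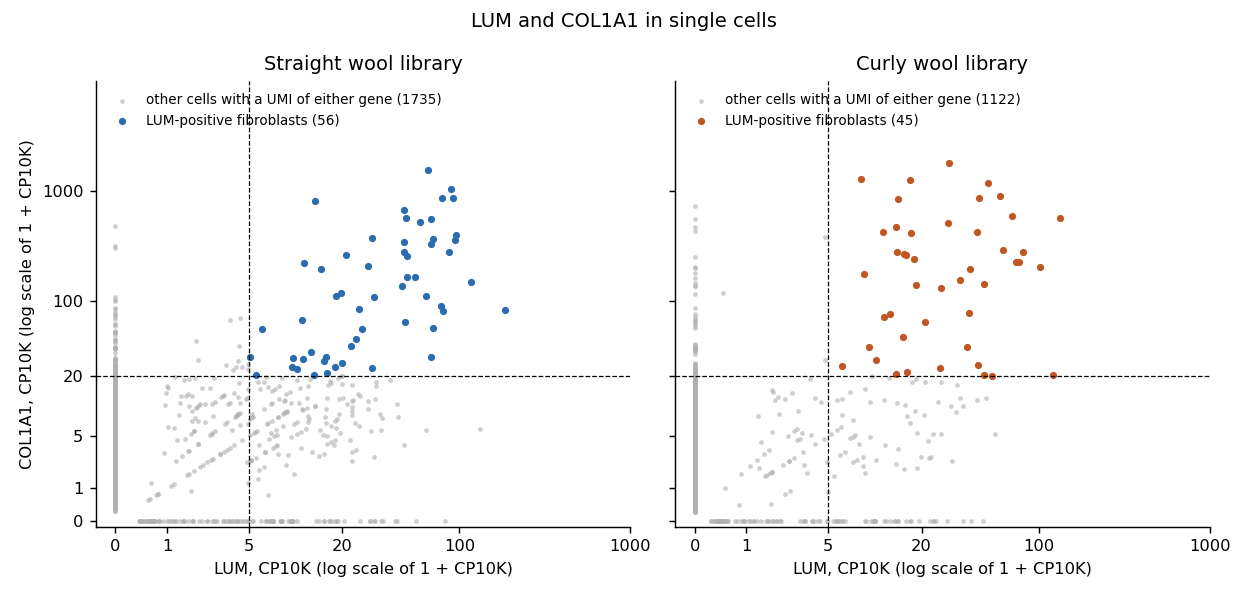
Each point is a cell, with its LUM level across and its COL1A1 level upward, both in CP10K on log axes, in 1 panel per library, and dashed lines mark the thresholds of 5 and 20. The 56 straight and 45 curly fibroblasts fill the upper right corner without a gap to the 283 cells that lie below the COL1A1 line.

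The fibroblasts were shallow cells. Their median depth was 1492 UMIs in straight (513 to 9800) and 1423 in curly (515 to 8826), against library medians of 7373.5 and 7495. They held 148542 and 99247 UMIs in all, so a gene without a UMI may lie at up to 3 counts, or 20.2 and 30.2 CPM (the UMIs of a gene summed over a cell set, per 1000000 UMIs of that set). The deepest single cell gave 6.60% of the straight and 8.89% of the curly fibroblast UMIs. A total of 70 cell barcodes occurred in both libraries, and 1 straight fibroblast carried one of them.

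The labelled cell type was described by markers that the choice did not use, although COL1A2 and COL3A1 followed the chosen COL1A1 over cells. COL1A2, the partner chain of COL1A1 in type I collagen, was found in 52 of 56 straight and 41 of 45 curly fibroblasts. COL3A1, the type III collagen chain, was found in 56 and 44 cells, and DCN, which encodes decorin, in 55 and 43. DCN was not limited to fibroblasts, with 27653 and 67485 UMIs in all remaining cells, and the study lists it as a hair matrix marker. With each cell thinned to 500 UMIs, a UMI of COL1A2 was expected in 79.9% and 78.8% of fibroblasts, against 0.153% and 0.231% of endothelial cells of median depth 6611 and 5524 UMIs. Unthinned, the fibroblast shares were 92.9% and 91.1%. In the papilla cells defined below, COL1A2 was expected in 17.9% and 11.9% at 500 UMIs and found in 74.3% and 62.4% unthinned. A COL1A2 UMI alone thus did not set fibroblasts apart from papilla cells. The 7 dermal papilla markers were present, and summed to 5911 and 3144 CPM in fibroblasts. They summed to 8776 and 9321.5 CPM in papilla cells, which were chosen by 5 of them, and to 918 and 1413.5 CPM in endothelial cells. Of 7 leukocyte markers 6, among them PTPRC, were at 0 in both libraries. The endothelial genes PECAM1, CDH5, CLDN5, EMCN and KDR were also at 0 in both, but they belong to the genes used in the choice, although no cell was removed by them. Keratin and other keratinocyte marker RNA was present, with summed levels of 2686 and 3255 CPM in fibroblasts, 2601 and 4871 in papilla cells, and 23622 and 24810 in all remaining cells. A setting without cells that held several keratinocyte or several leukocyte markers kept 35 straight and 15 curly fibroblasts and is given below. The source of this keratinocyte RNA was not tested.

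Papilla cells for comparison held VIM RNA and UMIs of at least 2 of the 5 genes FGF7, EDN3, WIF1, CORIN and RSPO3, with LUM below 5 CP10K, and numbered 1021 in straight and 410 in curly. Beside them, the fibroblasts were rich in fibrillar collagen, elastic fibre components and adventitial fibroblast genes. Of 6685 genes with at least 100 UMIs over both cell types and libraries, 372 (5.56%) were at least 2-fold higher in fibroblasts in both libraries and 138 (2.06%) at least 2-fold lower in both. The median log2 ratio over all these genes was 0.15 in straight and -0.02 in curly. Papilla cells had median depths of 7025 and 5338.5 UMIs, and ribosomal protein genes took 38.3% and 37.6% of their UMIs against 25.7% and 26.6% in fibroblasts.

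Among the fibrillar collagens, COL1A2 had 5742 CPM in the straight and 11466 CPM in the curly fibroblasts, against 434 and 228 CPM in papilla cells. COL3A1 was at 7574 and 10560 CPM in fibroblasts and 407 and 346 CPM in papilla cells. In both libraries, then, the 2 chains that the choice did not use lay more than 10-fold above the papilla level. COL6A3, a chain of the beaded-filament collagen VI, was at 801 and 615 CPM against 74.1 and 83.8 CPM. COL5A1, whose product helps to start fibrils, was at 498 and 584 CPM against 51.8 and 56.0 CPM. Of 19 measured collagen genes 11 were at least 2-fold higher in both libraries, among them COL1A1, on which the fibroblasts were chosen, and 0 were lower, with medians of 2.52 and 1.84 on the log2 scale.

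**Figure D2:**
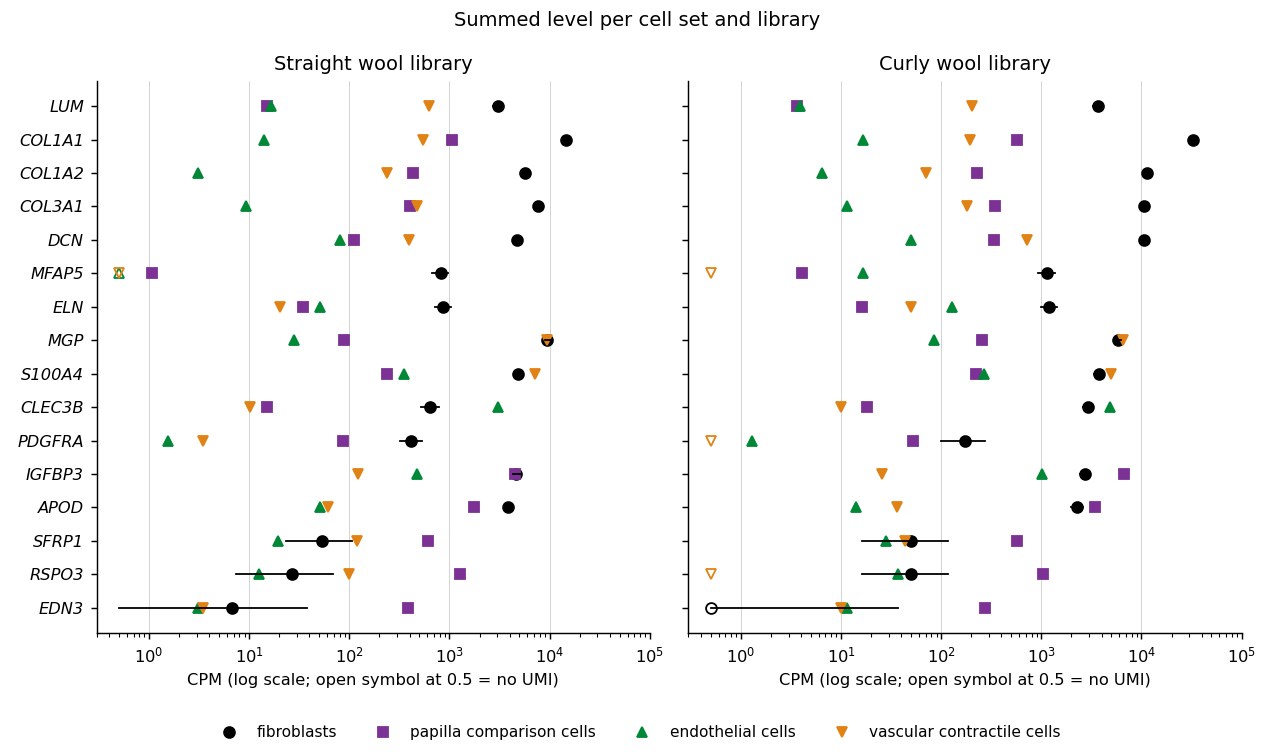
Summed level in CPM (log axis) of 16 genes in fibroblasts, papilla cells, endothelial cells and vascular contractile cells of each library, with the exact Poisson 95% interval of the fibroblast value as a black line and an open symbol where no UMI was found. DCN was at 4760 and 10539 CPM in fibroblasts and at 112 and 339 CPM in papilla cells, whereas CLEC3B was also high in endothelial cells, at 3063 and 4871 CPM.

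MFAP5, a microfibril-associated glycoprotein and the gene with the highest ratio by the library closer to 0, was at 815 CPM in straight fibroblasts and 1128 CPM in curly ones. In papilla cells MFAP5 was at 1.07 and 4.09 CPM, and in vascular contractile cells no MFAP5 UMI was found. At 500 UMIs per cell MFAP5 was expected in 31.9% and 33.7% of fibroblasts (unthinned 28 of 56 and 24 of 45 cells), and in 0% and 0.494% of endothelial cells. ELN, which encodes the elastin core of elastic fibres, was at 868 and 1189 CPM against 34.2 and 16.3 CPM in papilla cells. LTBP4, which assists elastin assembly, was at 525 and 262 CPM against 13.4 and 18.0 CPM. FBLN1, which encodes fibulin-1, did not follow, with 1171 and 998 CPM in fibroblasts and 1157 and 1099 CPM in papilla cells. Of 15 elastic fibre genes, 8 were higher and 1 lower in both libraries, with medians of 1.82 and 1.37.

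The adventitial genes mark fibroblasts that lie around vessels and deep in the dermis in other species. PI16, a peptidase inhibitor used as an adventitial marker, was at 263 CPM in straight fibroblasts and 222 CPM in curly ones, and no PI16 UMI was found in 1021 and 410 papilla cells. CD34, a surface sialomucin shared with endothelium, was at 141 and 222 CPM in fibroblasts and at 331 and 234 CPM in endothelial cells. CLEC3B, which encodes the plasminogen-binding protein tetranectin, had a log2 ratio over papilla cells of 5.43 in straight and 7.36 in curly. Of 9 reticular and adventitial genes 6 were higher and 0 lower, with medians of 3.26 and 3.45, and of 8 papillary fibroblast genes 0 were higher and 2 lower, with medians of -0.57 and -0.74. PDGFRA, the platelet-derived growth factor receptor of mesenchymal cells, was at 417 and 171 CPM in fibroblasts and 86.8 and 52.7 CPM in papilla cells.

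**Figure D3:**
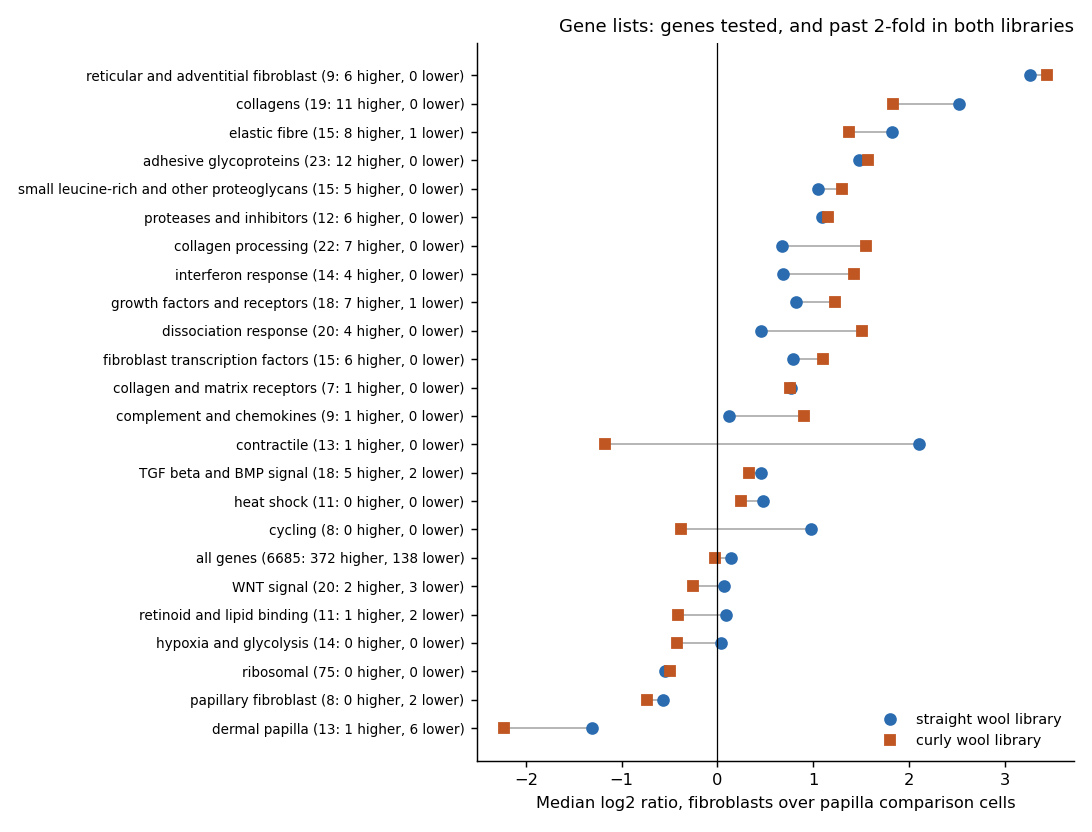
Median log2 ratio of fibroblasts over papilla cells for each gene list, with 1 symbol per library and the number of genes at least 2-fold higher and lower in both libraries. The reticular and adventitial list and the collagens stood furthest to the right, at 3.26 and 3.45 and at 2.52 and 1.84, and the dermal papilla list, part of which chose the comparison cells, stood to the left at -1.31 and -2.23.

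Adhesive glycoproteins, the matrix proteins through which cells hold on to fibres, had 12 of 23 genes higher and 0 lower. POSTN, which encodes periostin, was 4.34 and 2.28 higher on the log2 scale. Of 22 collagen processing genes 7 were higher and 0 lower, and among them LOX, which cross-links collagen and elastin, was at 168 and 474 CPM against 14.2 and 11.9 CPM. SPARC, which encodes a collagen-binding matrix protein, was at 4430 and 9612 CPM against 1357 and 1448 CPM. In the protease list, HTRA3, a secreted serine protease, was 4.73 and 5.70 higher. S100A4, a calcium-binding protein common in fibroblasts, and MGP, which encodes an inhibitor of matrix calcification, were at least 4.07 and 4.51 higher in each library. Neither was particular to the fibroblasts. Cells with LUM but less COL1A1 than required had S100A4 at 5454 and 7102 CPM and MGP at 4207 and 4115 CPM. Fibroblasts with at least 2 LUM UMIs had S100A4 at 4640 and 4090.5 CPM and MGP at 9764 and 6042 CPM.

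Further matrix and signalling genes also differed from papilla cells. TGFBR3, the co-receptor betaglycan, was at 249 and 131 CPM in fibroblasts, whereas papilla cells had 5.76 and 6.13 CPM. CCDC80, a secreted matrix-binding protein, was at 693 and 927 CPM, whereas papilla cells had 31.9 and 17.2 CPM. ECM2, a proteoglycan-like matrix protein, was at 478 and 242 CPM in fibroblasts (papilla cells 14.5 and 18.8 CPM), and GPC3, a glypican of the cell surface, at 909 and 786 CPM (papilla cells 173 and 93.2 CPM). BGN, which encodes biglycan, was higher in straight fibroblasts alone, with log2 ratios of 1.01 and 0.00. Of 18 growth factor and receptor genes, a list that holds the papilla gene FGF7, 7 were higher and 1 lower, and of 18 TGF beta and BMP genes 5 were higher and 2 lower. Of 15 fibroblast transcription factors 6 were higher and 0 lower. TWIST2, a dermal lineage factor, was at 121 and 151 CPM in fibroblasts and 26.4 and 29.0 CPM in papilla cells, and TCF4 had 680 and 433 CPM in fibroblasts and 135 and 189 CPM in papilla cells, while TWIST1 differed by -0.11 and 0.16 on the log2 scale. Of 12 protease and inhibitor genes 6 were higher and 0 lower, and of 11 retinoid and lipid-binding genes 1 was higher and 2 lower. CRABP1, which binds retinoic acid, was at 2235 and 1713 CPM in fibroblasts against 2492 and 4477 CPM. No gene of the heat shock, hypoxia and glycolysis, or cycling lists (11, 14 and 8 genes) passed 2-fold in both libraries.

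Genes that were lower in fibroblasts included several that had chosen the papilla cells (RSPO3 and EDN3), which describe that choice. SFRP1, a secreted WNT antagonist that was not used in the choice, was at 54 and 50 CPM in fibroblasts and at 604 and 573 CPM in papilla cells. SOSTDC1, an antagonist of BMP and WNT signals, and HHIP, a hedgehog inhibitor, were at least 2.40 and 2.16 lower on the log2 scale in each library. Of 20 WNT genes 2 were higher and 3 lower, where WIF1 and RSPO3 belong to the genes that chose the papilla cells, and of 75 ribosomal protein genes 0 passed 2-fold either way, with medians of -0.55 and -0.49.

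Among the proteoglycan genes, KERA was found in the fibroblasts of the curly library alone, below the minimum of 100 UMIs used for counts of genes. KERA encodes keratocan, a keratan sulfate proteoglycan of the lumican family, and in the RefSeq annotation no other protein-coding gene lies between KERA and LUM, nor between LUM and DCN. In curly fibroblasts 86 KERA UMIs were found in 15 of 45 cells, or 867 CPM (693 to 1070), with at most 17 UMIs in a single cell. In the straight fibroblasts 0 of 148542 UMIs and 0 of 56 cells held KERA, which allows up to 20.2 CPM and a share of cells with a KERA UMI of up to 5.36%. That share depends on depth and does not limit the share of cells that express KERA. With the straight level set to 20.2 CPM, the curly level was 5.42 higher on the log2 scale, without the counting error of the curly level. Thinned to 500 UMIs, 19.8% of curly fibroblasts were expected to hold a KERA UMI, against 0.0623% of curly papilla cells and 0% of endothelial cells. The remaining cells of the curly library held 15 KERA UMIs together and those of the straight library 0.

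LUM itself was at 3023 CPM in straight fibroblasts and 3688 CPM in curly ones, and its per-cell median was 30.6 CP10K (5.06 to 186) and 26.2 CP10K (6.18 to 133). DCN had a per-cell median of 58.5 CP10K (0 to 332) in straight and 71.6 CP10K (0 to 334) in curly. The per-cell ranges of both genes overlapped almost fully, while the summed DCN level was 1.15 higher on the log2 scale in curly (1.01 to 1.29). With every cell given equal weight the DCN difference was 0.20. The ratio of DCN to LUM UMIs was 1.57 and 2.86 in fibroblasts, and 7.43 and 92.2 in papilla cells, whose LUM level was limited by the choice. OGN, which encodes osteoglycin of the same family, was at 364 and 282 CPM in fibroblasts and found in 26.8% and 31.1% of them, and at 500 UMIs in 14.4% and 15.4% against 0.337% and 0.162% of endothelial cells. Of 15 proteoglycan genes 5 were at least 2-fold above the papilla level in both libraries and 0 were lower, and the 5 included LUM, whose difference the choice of both cell sets fixed.

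The fibroblasts differed widely among themselves in collagen RNA. COL1A1, COL1A2 and COL3A1 together took 3.20% of the UMIs of the median straight cell (0.298 to 27.8) and 3.86% of the median curly cell (0.208 to 29.6), and more than 10% of the UMIs in 6 and 8 cells. COL1A2 followed COL1A1 over cells with a Spearman rho of 0.85 in 56 straight and 0.91 in 45 curly cells, and COL3A1 followed COL1A1 with 0.87 in both. Cells of 1 library share their pool and their range of depth, and COL1A1 ran against depth in straight cells (rho -0.64) and little in curly cells (-0.10). The ratio of COL1A1 to COL1A2 UMIs was 2.56 (2.36 to 2.77) and 2.83 (2.64 to 3.03) in fibroblasts, and 2.46 and 2.48 in papilla cells. ELN also went with COL1A1, with rho of 0.70 and 0.64, whereas APOD, which encodes a lipid-binding apolipoprotein, went against it, with -0.60 and -0.57.

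**Figure D4:**
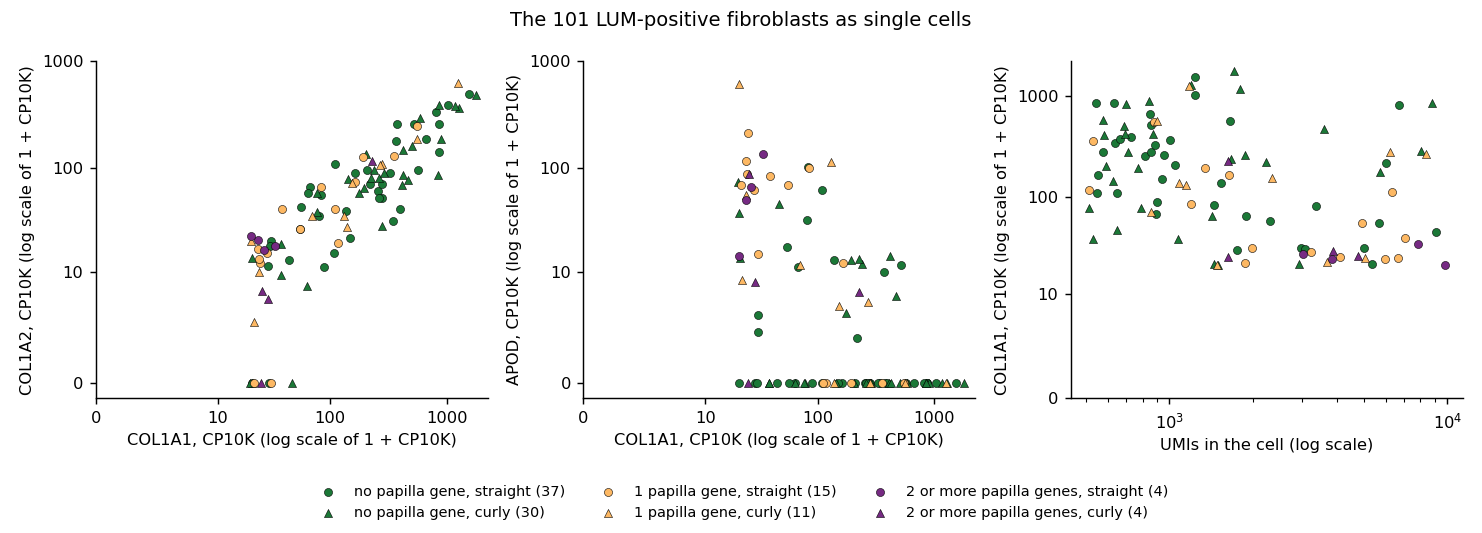
Each point is a fibroblast, with COL1A1 against COL1A2, COL1A1 against APOD (both in CP10K) and UMIs against COL1A1, coloured by the number of papilla genes with a UMI and with 1 symbol per library. COL1A2 climbed with COL1A1. Of the 34 cells with a papilla gene 17 lay at COL1A1 of 40 CP10K or more, and 24 held APOD, against 21 of the 67 cells with none.

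Cells near the COL1A1 threshold carried more papilla RNA. Of the 101 fibroblasts 67 held no UMI of the 5 papilla genes, 26 held UMIs of 1 of them and 8 of 2 or more. Among the 16 straight and 11 curly cells with COL1A1 below 40 CP10K, 11 and 6 cells held at least 1 of these genes, against 8 of 40 and 9 of 34 cells above. APOD was at 6433 and 6832 CPM below 40 CP10K and at 1253 and 477 CPM above. MFAP5 ran the other way, at 136 and 358 CPM below and 1480 and 1431 CPM above, as did ELN, at 54.4 and 71.5 CPM below and 1666 and 1627 CPM above. Cells below 40 CP10K were deeper, with a median of 3975.5 and 1619 UMIs against 947 and 1115, and gave 49.5% of the straight and 28.2% of the curly fibroblast UMIs. Among cells of at least 2000 UMIs, APOD was still higher in those with a papilla gene, at 7793 and 2364 CPM against 484 and 575 CPM. The 188 straight and 95 curly cells with LUM but COL1A1 under 20 CP10K, which were not fibroblasts by the rule, held APOD in 71.3% and 44.2% and MFAP5 in 3.72% and 8.42%.

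Between wool types, 322 genes had at least 100 UMIs in the fibroblasts of both libraries together. Of these, 26 (8.07%) were at least 2-fold higher in curly and 14 (4.35%) at least 2-fold lower, and the median log2 ratio was -0.03. The genes with the highest ratios were interferon-induced genes and uncharacterised loci, and CLEC3B, NUPR1 and RCN1 were also higher, whereas IGF2, POSTN and WIF1 were lower.

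**Figure D5:**
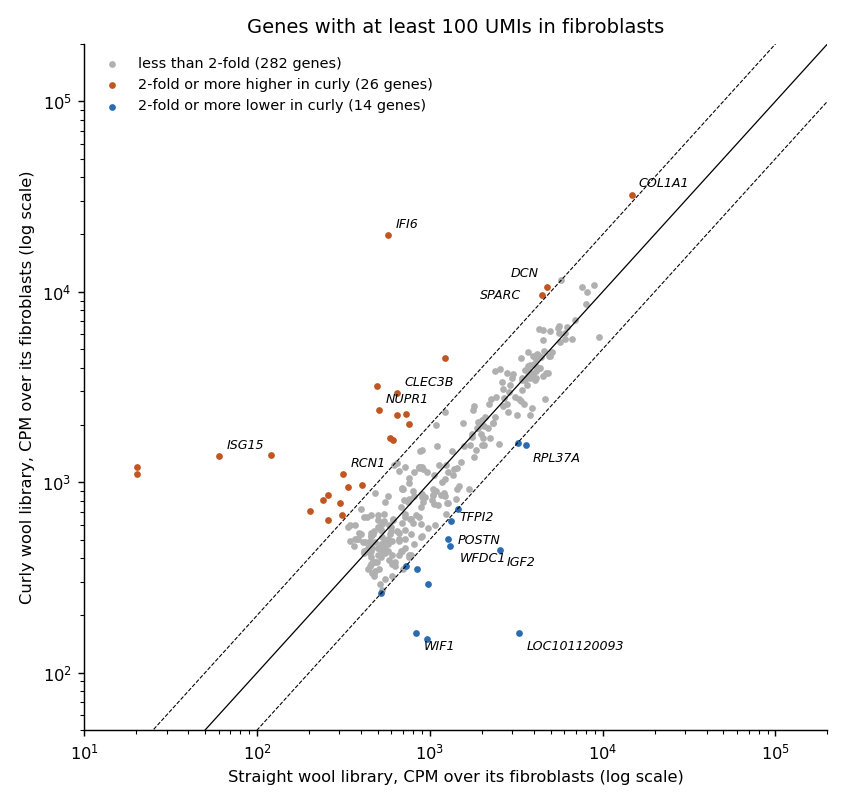
Level of each of 322 genes in straight (across) and curly (upward) fibroblasts, in CPM on log axes, with dashed lines at 2-fold. Most genes lie between the lines, 26 lie above and 14 below, with IFI6 at 572 and 19769 CPM far above them.

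CLEC3B was at 646 CPM in straight (523 to 789) and 2952 CPM in curly fibroblasts (2624 to 3310), a log2 ratio of 2.19 (1.85 to 2.54). It was found in 23 of 56 and 34 of 45 cells, and at 500 UMIs per cell in 24.6% and 59.1%. Papilla cells had a CLEC3B ratio of 0.26 and endothelial cells of 0.67. NUPR1, a stress-induced nuclear protein, had a ratio of 2.25 (1.87 to 2.64), against 0.52 in papilla and 0.19 in endothelial cells. RCN1, a calcium-binding protein of the endoplasmic reticulum, had 1.81 (1.30 to 2.33), against -0.43 in papilla cells.

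COL1A1 was at 14703 CPM in straight fibroblasts and 32404 CPM in curly ones, and COL1A2 differed by 0.87 to 1.13 on the log2 scale (the 95% interval). In papilla cells the ratios of the 2 genes were -0.91 and -0.93. As mean CP10K per cell the fibroblast differences were 0.50 for COL1A1 and 0.39 for COL1A2, and the COL1A2 per-cell ranges (0 to 496 and 0 to 628) overlapped. SPARC had a ratio of 1.12 (0.97 to 1.26), 0.38 as mean CP10K per cell. P4HA2, a subunit of the prolyl hydroxylase that modifies procollagen, was at 303 and 776 CPM, a ratio of 1.36 that was 0.37 as mean CP10K per cell, and SERPINH1, the collagen chaperone, at 1091 and 1995 CPM. Of 6 collagen processing genes 2 were at least 2-fold higher and 0 lower, with a median of 0.63, while of 9 collagen genes 1, COL1A1, by which the cells were chosen, was higher and 0 were lower, with a median of -0.12.

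Complement genes of the first component had few UMIs and were higher in curly fibroblasts. C1S, a protease of the C1 complex, was found in 6 straight and 36 curly UMIs, a log2 ratio of 3.17 (1.91 to 4.70). C1R, its activating partner, was found in 13 and 49 UMIs, with 2.50 (1.59 to 3.50), and SERPING1, the inhibitor of both, had 1.80 (1.17 to 2.47). Papilla cells had ratios of -0.02, 0.11 and -0.42 for C1S, C1R and SERPING1. In endothelial cells C1R and SERPING1 were also higher in curly, by 3.31 and 3.50. Of 8 complement and chemokine genes with at least 20 UMIs, 4 were at least 2-fold higher and 1 lower, against 7.04% higher and 15.8% lower among 1634 genes at that minimum.

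The interferon-induced genes IFI6 and ISG15 were higher in the curly library in fibroblasts, papilla cells and endothelial cells alike. IFI6 was found in 26 of 56 straight and in all 45 curly fibroblasts, with a per-cell median of 0 CP10K (0 to 40.4) and 160 CP10K (29.4 to 541). The IFI6 ratio was 5.11 (4.80 to 5.44) in fibroblasts, 5.04 in papilla cells and 6.77 in endothelial cells. ISG15, a ubiquitin-like modifier, had 4.50 in fibroblasts and 3.43 in papilla cells. The uncharacterised loci LOC101113168 and LOC114109518 had ratios of 5.90 (4.32 to 8.20) and 5.78 (4.19 to 8.08) in fibroblasts and of 7.84 and 5.62 in papilla cells. Dissociation-response genes were higher in part, with 2 of 11 at least 2-fold higher, 0 lower and a median of 0.38. FOS, an immediate-early gene, was at 4160 and 4695 CPM, and DUSP1, an early-response phosphatase, had a ratio of 1.54 against -0.45 in papilla cells.

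IGF2, a growth factor, was at 2531 CPM in straight (2282 to 2801) and 443 CPM in curly fibroblasts (322 to 595). The IGF2 ratio was -2.51 (-2.998 to -2.06), against -0.22 in papilla cells and -0.01 in endothelial cells. Over all remaining cells of the libraries it was -1.895, but that pool held 1021 straight and 410 curly papilla cells, so its mix of cell types differed. Whether the lower IGF2 level in curly was particular to fibroblasts was not tested. IGF2 was found in 73.2% and 37.8% of fibroblasts, and in 47.5% and 17.3% at 500 UMIs. POSTN was at 1279 and 504 CPM, with a ratio of -1.34 (-1.82 to -0.89) in fibroblasts and 0.72 in papilla cells. The POSTN ratio was -1.8 in endothelial cells, so its lower level in curly was not particular to fibroblasts. Over the mixed pool of all remaining cells it was -1.41. WIF1, a secreted WNT inhibitor and one of the genes that chose the papilla cells, was at 835 and 161 CPM in fibroblasts. Its ratio was -2.37, and 109 of the 124 straight and all 16 curly WIF1 UMIs came from cells with COL1A1 below 40 CP10K. The cells with LUM of at least 10 and COL1A1 of at least 40 CP10K held 4 straight and 0 curly UMIs, too few to compare.

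The other gene lists were set beside the median of -0.03 over all 322 genes between wool types. Of 6 elastic fibre genes with at least 100 UMIs 0 were at least 2-fold higher in curly and 1, LTBP4, was lower, with a list median of -0.35. MFAP5 had a ratio of 0.47 (0.09 to 0.85) and ELN of 0.45 (0.08 to 0.82). Of 4 adhesive glycoprotein genes SPON2, which encodes a spondin of the matrix, was higher at 1.26 (0.78 to 1.75) and POSTN was lower. Of 3 dermal papilla genes 0 were higher and 1 was lower, with a median of -0.77. APOD had a ratio of -0.75 (-0.98 to -0.53) in fibroblasts and 0.97 in papilla cells, and IGFBP3, which binds insulin-like growth factors, had -0.77 and 0.55. Both genes were higher in the cells with COL1A1 below 40 CP10K, which gave 49.5% of the straight and 28.2% of the curly UMIs. Without these cells the fibroblast ratio was -1.39 for APOD and -1.55 for IGFBP3. Among the straight cells left, those of 1450, 1195 and 4920 UMIs held 614, 268 and 81.3 CP10K of IGFBP3. Their APOD values were 103, 100 and 69.1 CP10K. Both ratios rest largely on such single cells, and no ratio was taken without them. PDGFRA was found in 34 of 56 straight and 13 of 45 curly fibroblasts, and at 500 UMIs per cell in 33.4% and 15.3%. Its 62 and 17 UMIs fell below the minimum of 100 and gave a ratio of -1.28 (-2.15 to -0.49), against -0.72 in papilla cells.

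LOC101120093 is an uncharacterised locus with 2 protein-coding genes between it and CCL1 in the RefSeq annotation. Its 490 straight and 16 curly fibroblast UMIs gave a ratio of -4.35 (-5.17 to -3.64). Of the straight UMIs 145 came from 1 cell. Without the cell of each library that held most of the gene, the ratio was -4.29. Straight cells of 9099 and 5952 UMIs were also high, with 144 and 108 CP10K. The straight level thus rested largely on a few cells. The ratio was -2.95 in papilla cells and -3.28 in endothelial cells. Among cells with LUM but COL1A1 under 20 CP10K the libraries were close, with 1670 CPM for straight and 1601 CPM for curly. LOC101117955 had a ratio of -2.67 that rested on 1 straight cell with 116 of 143 UMIs, and it was -0.52 without that cell and the curly cell with the most UMIs of the gene (3 of 15). TFPI2, a protease inhibitor, had -1.08, and 66.1% of its curly UMIs came from 1 cell. TUBA1A, a tubulin chain, and ACTB, the cytoplasmic actin, had ratios of -1.74 and -1.01, against -0.44 and -0.76 in papilla cells. Of 71 ribosomal protein genes 0 were higher and 1, RPL37A at -1.20, was lower. RPL37A was also lower in curly papilla cells (-1.29) and endothelial cells (-1.50).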

How the data were processed

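Cells of 2 pools of lamb skin were profiled with 10× Genomics single-cell RNA-seq. The authors aligned reads to Oar_rambouillet_v1.0 and counted UMIs with Cell Ranger (3.0.2 in the submitters' processing notes), and deposited 1 table of 18161 genes in 14037 cells, as natural log values of 1 plus UMIs per 10000 of a cell. This scale was read from the values. The table holds fewer cells than the study states, and includes cells with fewer genes than its stated minimum of 1750. Turning these natural log values, as deposited, back into UMIs gave whole numbers within 0.01 for 100% of the values above 0. Counts had been assumed possible when the comparisons were planned.

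The UMIs of the fibroblasts of a library were summed and scaled to CPM, and their intervals are exact Poisson ones. Ratios of curly over straight used genes with at least 100 summed UMIs (20 where stated) and an interval from the exact binomial split, and a sum of 0 was set to 3 counts. Shares have exact Clopper-Pearson intervals. Thinning to 500 UMIs left out 0 fibroblasts, and the share is the expected one. Ratios over papilla cells were taken within each library. Endothelial cells held at least 3 of 6 endothelial genes and vascular contractile cells at least 3 of 5 contractile genes. With 1 library per wool type no test or p-value was made, and the samples were grouped by wool type as labelled. No doublet caller was run. The scripts (Python 3.11.15, numpy 2.4.6, scipy 1.17.1) recovered known folds in simulated Poisson sums. That simulation held no variation between cells, so it checks the calculation and not the effect of single cells.

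The members and the gene lists were chosen with earlier results of these data known. Genes named were the markers, up to 6 of the highest CPM per list, list genes past 2-fold, the 10 highest and lowest ratios between libraries, and the 15 highest and lowest over papilla cells. Any other gene was named after its values were seen. Alternatives covered thresholds, depth, filters, weighting of cells and single cells left out. RefSeq (ARS-UI_Ramb_v3.0), another assembly than that of the table, served for names and gene order only, and no sequence or position is given.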

Additional observations from a re-analysis of the deposited data

Results flagged for a closer look

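The fibroblast and papilla cells of the same libraries went opposite ways in WFDC1, which encodes a secreted protein of the whey acidic protein family. Its log2 ratio of curly over straight was -1.50 (-1.998 to -1.03) in fibroblasts and 1.59 in papilla cells. The locus LOC101102683, a long non-coding RNA gene with 1 gene between it and IGF2 in the RefSeq annotation, had -1.27 in fibroblasts and 1.27 in papilla cells, and 65.7% of its curly fibroblast UMIs came from 1 cell. The difference between the cell types was not tested for either gene, since each wool type had 1 library.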

How the results depend on the processing

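No paired analysis was possible because each wool type had 1 library, which leaves 1 pair at most and no spread between pairs. Other settings were compared for 116 counts and shares, of which 92 stayed close, for 717 list medians, of which 39 moved and 1 changed sign, and for 1118 values of named genes, of which 136 moved and 1 changed sign. With LUM of at least 10 and COL1A1 of at least 40 CP10K, the shares of cells were 0.604% and 0.422%, and 15 genes were higher and 9 lower of 193 in curly, with 8 of 9 list medians keeping their sign (14 lists in the report). With COL1A1 of at least 40 CP10K alone, chosen after seeing the data, the straight share was 0.620%, 9 genes were lower in curly and 9 of 10 list medians kept their sign. Members of at least 1000 UMIs, also chosen after seeing the data, made up 0.542% and 0.369%. Cells with at least 2000 genes left 8 straight and 0 curly fibroblasts, or 0.241% and 0%, so no comparison was possible. Leaving out cells that held several keratinocyte or several leukocyte markers kept 35 of 56 straight and 15 of 45 curly fibroblasts. The straight share was then 1.63%, 17 genes were higher in curly, 89 were lower than in papilla cells and 7 of 9 list medians kept their sign. There the contractile list median over papilla cells in curly turned from -1.17 to 0.33, and LOC101117955 turned from -2.67 to 0.0294. As the mean of per-cell CP10K, 624 genes were higher and 296 lower than in papilla cells. With at least 20 UMIs, 115 genes were higher and 258 lower in curly and 929 higher than in papilla cells, and with at least 300 UMIs 11, 4 and 129, as other numbers of genes were tested. The causes of the other shifts were not tested. Over the settings CLEC3B ranged from 1.68 to 2.53, IGF2 from -2.82 to -2.11 and POSTN from -2.07 to -1.15, while COL1A1 went from 1.14 to 0.80 without the deepest cell of each library and to 0.74 with COL1A1 of at least 40 CP10K. Leaving out the 5% of cells with the most UMIs removed 0 fibroblasts. The limits are 101 shallow cells, no spread between lambs, and a gene at 0 that may lie at up to 20.2 CPM in straight or 30.2 CPM in curly.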

Other observations

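Genes under the minimum of 100 UMIs added to the picture of the fibroblasts. MATN4, a cartilage-type matrix adaptor protein, had 9 UMIs in 1 straight fibroblast and 49 UMIs in 5 curly ones, against 1 UMI in all straight and 0 in all curly papilla cells. DPT, which encodes the collagen-binding protein dermatopontin, was at 54 and 373 CPM in fibroblasts against 0.402 and 4.49 CPM in papilla cells. ACTA2, the smooth muscle actin, had 67 UMIs in straight and 8 in curly fibroblasts, a log2 ratio of -2.48, and TAGLN, an actin-binding protein of contractile cells, had 79 and 20 UMIs. Of the straight UMIs, 62 of ACTA2 and 63 of TAGLN came from 3 cells each. Of 8 contractile genes with at least 20 UMIs, 1 was at least 2-fold higher in curly fibroblasts and 6 were lower, with a median of -1.76, beside 7.04% higher and 15.8% lower among all 1634 genes at that minimum, while the same genes had a median of 1.97 in papilla cells. The vascular contractile markers summed to 1225 CPM in the straight and 363 CPM in the curly fibroblasts, and 2 straight and 0 curly fibroblasts held at least 3 of the 5 contractile genes. SOX18, a SOX-family transcription factor, had 45 UMIs in straight and 2 in curly fibroblasts, a ratio of -3.91. Over all remaining cells, whose mix of cell types differed between the libraries, the ratio was -1.95. Of the fibroblast UMIs of SOX18, 42 straight and 1 curly came from cells with COL1A1 below 40 CP10K. Papilla genes were also more frequent in those cells, and the other fibroblasts held 3 and 1. SOX18 is one of the 7 dermal papilla markers used here.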
